A study of Homo sapiens with 6 samples.

Results

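The 8 ATP-binding cassette (ABC) transporter genes described here are ABCA2, ABCA3, ABCA4, ABCA7, ABCA12, ABCB1, ABCC1 and ABCC11. Their regions are the rows of 3 deposited lists of differentially methylated regions that overlap a window around each gene. The 3 lists hold 4344 rows in all, and 13 of them met this rule, at 12 distinct places once overlapping rows of different lists were merged. The genes were chosen by the measured calls themselves, since each had a region that the lists called different between the groups. The levels and differences of these 13 rows are therefore given as a description without a test.

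ABC transporters are membrane proteins that use ATP to move lipids, drugs, conjugates and other molecules across membranes. Members of the A subfamily handle mainly lipids, while ABCB1 and several members of the C subfamily export drugs and conjugated compounds from cells. In the liver, transporters of this family carry bile salts, phospholipids, cholesterol and drug conjugates out of hepatocytes. DNA methylation at CpG sites is set de novo by enzymes that include DNMT3A. Methylation at the promoter and in the body of a gene are usually read differently, so the place of each region in its gene is given below.

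The cells were HepG2, an established human liver cancer line. The assay was RRBS (reduced representation bisulfite sequencing), which cuts genomic DNA with MspI at CCGG sites and then reads methylation after bisulfite treatment. Of 6 libraries, 3 came from cells with DNMT3A overexpressed from a lentivirus and 3 from wild-type-labelled cells with a control lentivirus. Both groups thus carry a lentivirus, and the labels give no promoter for the transgene, no time after infection and no word on clones. Each list compares an overexpressing with a control library of equal number, here called pairs 1, 2 and 3. Nothing in the labels states that replicate libraries stem from separate cultures, so any spread given here may be technical. The overexpressing libraries held 25764323 to 29924507 mapped reads and the controls 26912596 to 29269281. Reads per region are not in the lists, so the depth behind a level cannot be stated and levels carry no interval. The files hold no expression values, so neither DNMT3A expression nor liver markers could be checked.

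The 250 bases before each matched annotated start were searched for MspI sites, which RRBS cuts. Sites after the starts were not counted. RefSeq promoter entries (GRCh38.p14) were matched by symbol for 6 of the 8 genes, with 11 annotated starts in all. ABCA4 and ABCC1 had no entry. None of the stretches of 250 bases before these 11 starts was overlapped by a listed region of any pair, and the same held for nearly all starts, since 200 of 35116 such stretches (0.57%) were overlapped. The 0 of 11 is therefore no result about these genes. The MspI site CCGG, which reads the same on both strands, was found in 6 of the 11 stretches (54.5%), against 58.5% of the 35116 entries of all genes. ABCB1 and ABCA2 are shown because ABCB1 has the listed loss and ABCA2 the listed region nearest to a start. Sequences are 5′ to 3′ on the gene's minus strand, capitals mark CCGG, and each is the stretch before the outer or the inner annotated start.
ABCB1 outer start, chr7:87713296-87713545: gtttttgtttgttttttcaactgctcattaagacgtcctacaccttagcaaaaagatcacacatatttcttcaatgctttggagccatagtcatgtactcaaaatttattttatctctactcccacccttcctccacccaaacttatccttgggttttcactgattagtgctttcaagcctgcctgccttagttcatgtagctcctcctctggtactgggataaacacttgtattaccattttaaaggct
ABCB1 inner start, chr7:87600885-87601134: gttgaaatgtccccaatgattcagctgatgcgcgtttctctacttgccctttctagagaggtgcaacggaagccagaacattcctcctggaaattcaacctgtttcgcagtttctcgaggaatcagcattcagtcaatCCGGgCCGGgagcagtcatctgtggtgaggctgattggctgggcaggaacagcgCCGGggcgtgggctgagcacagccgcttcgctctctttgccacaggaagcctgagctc
ABCA2 outer start, chr9:137028923-137029172: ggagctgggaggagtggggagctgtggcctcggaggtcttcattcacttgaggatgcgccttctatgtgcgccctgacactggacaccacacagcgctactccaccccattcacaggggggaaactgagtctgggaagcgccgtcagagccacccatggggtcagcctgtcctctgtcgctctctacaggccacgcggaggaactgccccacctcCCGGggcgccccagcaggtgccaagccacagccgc
ABCA2 inner start, chr9:137028238-137028487: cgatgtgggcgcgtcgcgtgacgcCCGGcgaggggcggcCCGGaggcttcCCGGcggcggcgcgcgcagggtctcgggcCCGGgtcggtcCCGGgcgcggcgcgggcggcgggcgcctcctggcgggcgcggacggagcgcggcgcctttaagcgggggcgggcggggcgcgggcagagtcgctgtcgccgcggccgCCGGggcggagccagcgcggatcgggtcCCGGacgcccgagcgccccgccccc

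The stretch before the outer ABCB1 start held no CCGG and 1 CpG, and that before the inner start 3 CCGG and 12 CpG. For ABCA2 the outer stretch held 1 CCGG and 12 CpG, and the inner one 7 CCGG and 54 CpG. ABCA3 had 6 CCGG among 38 CpG and ABCA7 had 4 CCGG among 25 CpG before their annotated starts. Both ABCA12 starts, with 1 and 2 CpG, held no CCGG. Of the 3 ABCC11 starts, the outer one held no CpG, the middle one 24 CpG with 1 CCGG, and the innermost 2 CpG without CCGG. The count of a site in a stretch does not say whether the libraries covered it.

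Most listed regions were more methylated in the overexpressing library, in the 8 genes as in the lists as a whole. Of the 13 rows 12 were higher and 1, in ABCB1, was lower. All 5 rows of pair 1 and all 5 of pair 2 were higher, as were 2 of the 3 rows of pair 3. Among all listed rows 82.1% in pair 1, 81.7% in pair 2 and 81.1% in pair 3 were higher. Over the 3 lists together 92.3% of the ABC rows and 81.6% of all rows were higher. With only 13 rows, of which ABCC1 supplied 2, this share does not set the genes apart from the lists as a whole. The lists hold called regions only, and the number of regions tested by the authors is not given in the sources used here.

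The lists were next compared for regions that recur between pairs. Of the 12 distinct regions 11 were listed in 1 pair, 1 in 2 pairs and none in all 3. Over all 3313 distinct regions of the series 21.8% were listed in at least 2 pairs and 8.21% in all 3. Where a pair did not list a region, its levels there are not in the files, so 11 of the 12 regions have no replicate check. Counted by gene, ABCA7 had regions from all 3 pairs and ABCA3, ABCC1 and ABCC11 from 2 pairs, while ABCA2, ABCA4, ABCA12 and ABCB1 each had a region from 1 pair. Among the 1773 protein-coding genes with a listed region within 1 kb, 33.3% had regions from at least 2 pairs and 13.6% from all 3. With so few regions and genes, and with the calls that chose them, neither count sets the ABC genes apart from the lists as a whole.

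**Figure D1:**
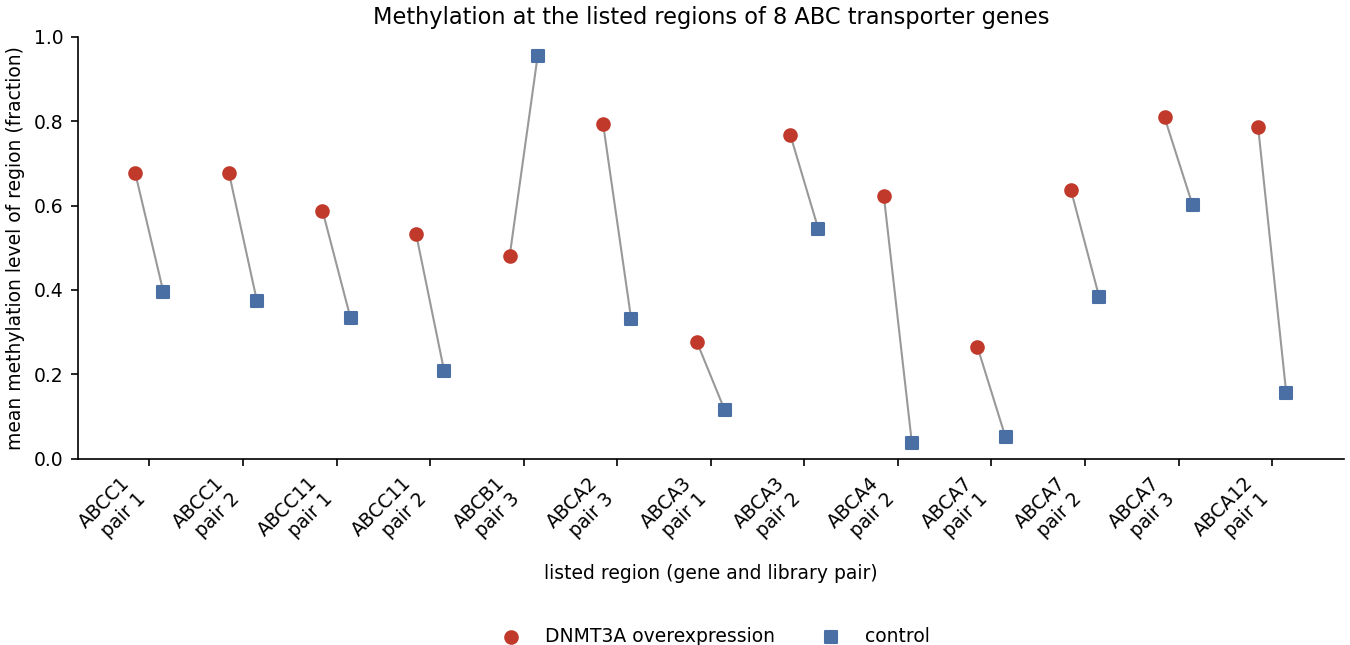
Mean methylation level (fraction, y axis) of each listed region in the DNMT3A-overexpressing library (red circle, left) and in its paired control library (blue square, right), joined by a line, by gene and pair (x axis). Every joined pair of points slopes the same way except ABCB1, at 0.479 in the overexpressing and 0.955 in the control library.

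ABCC1 encodes a drug and glutathione-conjugate exporter of the plasma membrane and held the region that 2 pairs listed. It lies at chr16:15997065-15997282 (hg38, as all coordinates here), inside the gene and 47922 bp from its nearer end, with 22 CpG sites in 218 bp. Its level was 0.676 and 0.678 in overexpressing libraries 1 and 2, against 0.395 and 0.373 in control libraries 1 and 2. The overexpressing libraries were both higher than both controls, and they differed from each other by less than the controls did. With 2 values per group, chosen because both pairs were called, the latter shows nothing about spread. The mean was 0.677 ± 0.00135 over the overexpressing and 0.384 ± 0.0152 over the control libraries, with a difference of 0.293 ± 0.0166 (SD, n = 2 pairs). Both lists gave the region the same boundaries, as for 92 of the 364 regions that were higher in exactly 2 pairs. Those 364 regions had a median difference of 0.264 and a median SD between the pairs of 0.0277. Pair 3 did not list the ABCC1 region, and the levels in its libraries are not known from the files.

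ABCC11, which exports conjugated lipophilic anions and in people sets the type of earwax, was listed at 2 places. In pair 1 the region at chr16:48205801-48205904, with 14 CpG sites, stood at 0.588 in the overexpressing and 0.333 in the control library. In pair 2 the region at chr16:48183280-48183352, with 6 CpG sites, stood at 0.533 in the overexpressing and 0.208 in the control library. Both were higher, by 0.255 and 0.325, but they lie 22448 bp apart and so do not repeat each other. They lie 41687 and 64223 bp into the gene from its outer start.

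ABCB1 encodes P-glycoprotein, the efflux pump best known for multidrug resistance, and carried the loss. In pair 3 the region at chr7:87553510-87553609 stood at 0.479 in the overexpressing and 0.955 in the control library, a difference of -0.476. That control level was above 99.4% of the control levels in its list, most of which belong to gains. Over all 798 lower rows of the 3 lists the median control level was 0.583, the upper quartile 0.744 and the highest 0.979. It holds 5 CpG sites in 100 bp and lies 159736 bp from the outer and 47325 bp from the inner annotated start shown above, towards the end of the gene. Pairs 1 and 2 listed no region in ABCB1. Of the 1773 protein-coding genes with a listed region, 26.9% had at least 1 that was lower.

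Among the lipid transporters, ABCA7 was listed in every pair, each time at another place. ABCA7 moves phospholipids, takes part in phagocytosis and is a risk gene for late-onset Alzheimer's disease. The pair 1 region at chr19:1052072-1052161, with 10 CpG sites, stood at 0.265 in the overexpressing and 0.0509 in the control library. The pair 2 region at chr19:1045185-1045282, with 13 CpG sites, stood at 0.636 in the overexpressing and 0.384 in the control library. The pair 3 region at chr19:1044886-1044991, with 15 CpG sites, stood at 0.809 in the overexpressing and 0.601 in the control library. All 3 were higher, by 0.214, 0.252 and 0.208. The regions of pairs 2 and 3 are neighbours with a gap of 193 bp, and the next gap, to the pair 1 region, is 6789 bp. Because they do not overlap, they were counted as separate regions and no mean over pairs was formed.

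ABCA3, which loads surfactant phospholipids into the lamellar bodies of lung alveolar cells, was listed in pairs 1 and 2. The pair 1 region at chr16:2285630-2285715, with 14 CpG sites, stood at 0.277 in the overexpressing and 0.114 in the control library. Its difference of 0.163 was the smallest of the 13 rows, and 15.3% of the rows of that list had a smaller absolute difference. The pair 2 region at chr16:2325998-2326111, with 11 CpG sites, stood at 0.767 in the overexpressing and 0.544 in the control library, a difference of 0.223. The 2 regions lie 40282 bp apart at opposite sides of the gene, the first 55056 bp and the second 14674 bp from the annotated start, and differ widely in level.

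ABCA12, ABCA4 and ABCA2 were each listed at 1 place in 1 pair, with the largest gains among the 8 genes. ABCA12 carries glucosylceramides into the lamellar granules of keratinocytes. Its region at chr2:215016309-215016410, with 4 CpG sites, stood at 0.786 in the overexpressing and 0.156 in the control library of pair 1. The difference of 0.629 ranked 17 among the 1483 rows of that list by absolute size. ABCA4 flips retinoid-bearing phospholipids in photoreceptor discs. Its region at chr1:94108803-94108865, with 4 CpG sites, stood at 0.622 in the overexpressing and 0.0359 in the control library of pair 2, a difference of 0.586 that ranked 31 among 1433 rows.

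ABCA2 is an endolysosomal lipid transporter known mainly from brain. Its region at chr9:137025486-137025743, with 12 CpG sites over 258 bp, stood at 0.792 in the overexpressing and 0.330 in the control library of pair 3. The difference of 0.462 was above that of 91.0% of the rows of that list in absolute size. It had the fewest CpG sites per length of the regions with at least 10 sites, at 4.65 per 100 bp.

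All 13 rows lay inside their gene and over 1 kb from both of its ends, and no other annotated gene lay within 1 kb of any of them. Of all 3226 placements of a listed region in or within 1 kb of a protein-coding gene, 75.3% were over 1 kb inside both ends. Measured from the outer annotated start, the regions of the 6 genes with a promoter entry ran from 15.3% of the gene's length in ABCA2 to 84.9% in ABCA3. ABCA4 and ABCC1, which had no entry, are not in this range. The nearest to any annotated start was the ABCA2 region, 3308 bp from the outer and 2623 bp from the inner start, followed by the ABCA7 regions of pairs 3 and 2 at 4831 and 5126 bp. Whether a region falls in an exon or an intron was not analysed here.

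**Figure D2:**
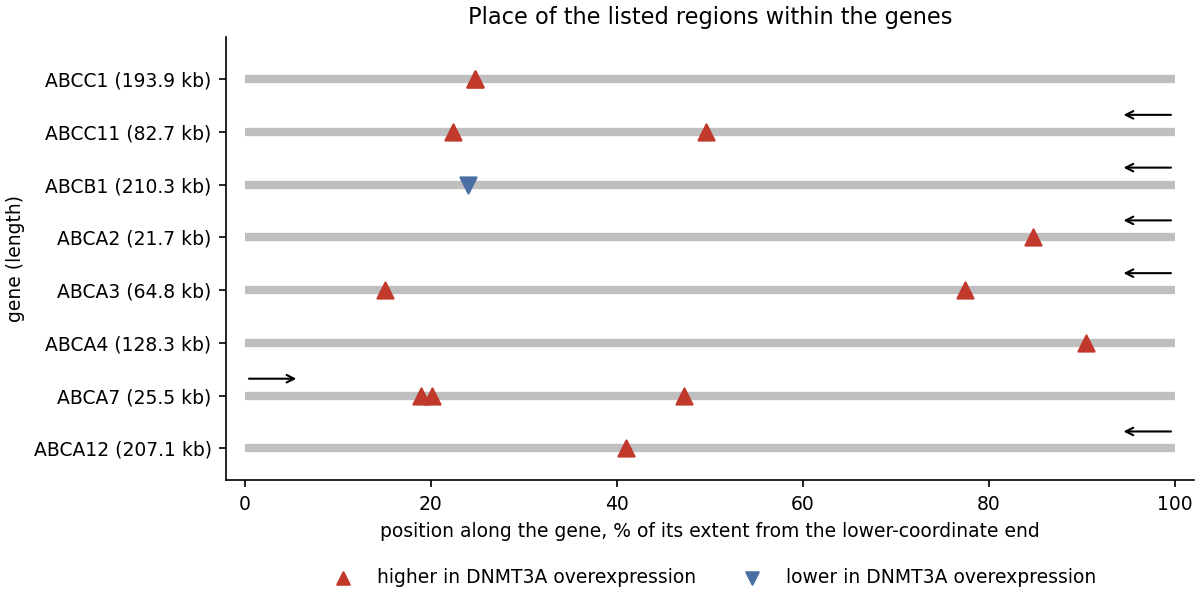
Place of each listed region along its gene, as a percentage of the gene's extent from the end with the lower coordinate (x axis), for the 8 genes with their lengths (y axis). Upward red triangles are higher and the downward blue triangle lower in DNMT3A overexpression. Arrows mark the outer annotated start and direction of transcription for genes with a matched promoter entry. The ABCC1 triangle, at 24.8%, stands for 2 pairs.

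The median ABC gain had a higher level than the median listed gain in the overexpressing as well as in the control library. Over the 12 higher rows the median level was 0.656 in overexpressing and 0.332 in control libraries, against 0.512 in overexpressing and 0.195 in control libraries over all 3546 higher rows. The median difference was almost the same, 0.268 for the ABC rows and 0.265 for all higher rows. Control levels at the ABC gains spanned 0.0359 in ABCA4 to 0.601 in the pair 3 region of ABCA7, so they covered unmethylated as well as largely methylated starting points. These medians rest on 12 rows, of which the ABCC1 region supplied 2, and were not tested.

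**Figure D3:**
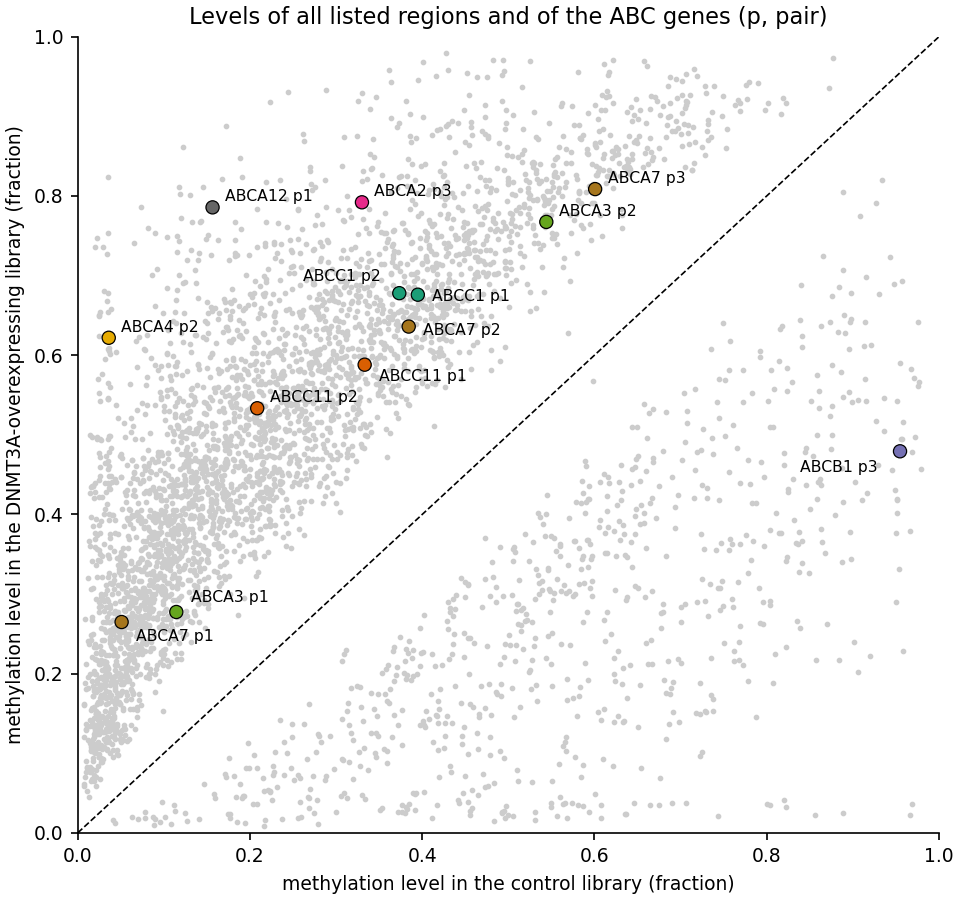
Level in the DNMT3A-overexpressing library (y axis) against the control library of the same pair (x axis), both as fractions, for all 4344 listed rows (grey) and the 13 ABC rows (coloured by gene, p for pair). The dashed line marks equal levels, and the ABCB1 point, at 0.479 in the overexpressing and 0.955 in the control library, is the ABC row under it.

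In the lists as a whole regions with few CpG sites had the larger differences, and the ABC rows with the fewest sites had the largest of the 13. The 3 ABC rows with 4 or 5 CpG sites, in ABCA12, ABCA4 and ABCB1, had absolute differences of 0.629, 0.586 and 0.476, with a median of 0.586. The 1 row with 6 to 9 sites, in ABCC11, had 0.325, and the 7 rows with 10 to 19 sites had a median of 0.223. The 2 ABCC1 rows with 22 sites, which are 1 region, had a higher median of 0.293, unlike the lists as a whole. In all 3 lists together the medians were 0.400 over 546 rows with 4 or 5 sites and 0.305 over 1096 rows with 6 to 9. They were 0.260 over 1664 rows with 10 to 19 sites and 0.217 over 1038 rows with 20 or more. The ABC rows were otherwise of ordinary size, with a median of 12.5 CpG sites, 103 bp and 10.1 CpG sites per 100 bp among the gains, against 12, 103 bp and 10.8 among all gains. Reads per region are unknown, so the part of depth in these differences was not tested.

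**Figure D4:**
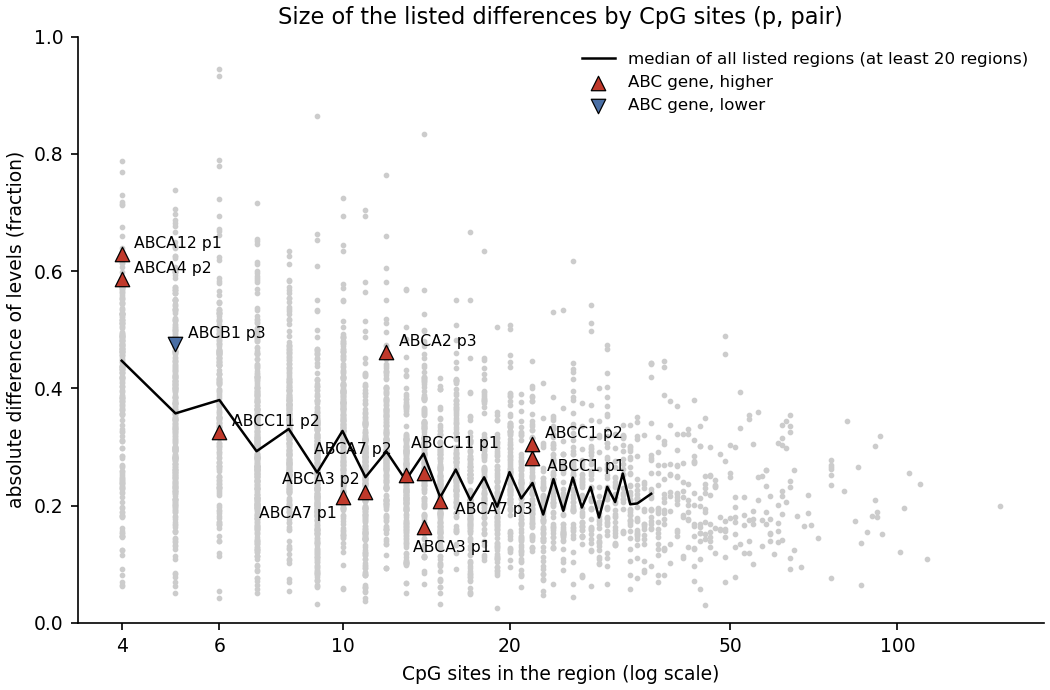
Absolute difference between the overexpressing and control levels (fraction, y axis) against the number of CpG sites of the region (log x axis), for all listed rows (grey), with their median at each number of sites that has at least 20 rows (line). Triangles are the 13 ABC rows, which at 4 and 5 sites lie above the line and at 10 to 15 sites mostly on or below it, apart from ABCA2 at 0.462.

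In the whole human ABC family of 48 genes, 8 had a listed region within 1 kb, the 8 described here, and 40 had none. By subfamily these were 5 of 12 ABCA genes, 1 of 11 ABCB genes counting TAP1 and TAP2, 2 of 12 ABCC genes counting CFTR, and 0 of 13 genes of the ABCD to ABCG subfamilies. The bile salt exporter ABCB11, the phosphatidylcholine floppase ABCB4, the conjugate exporter ABCC2, the cholesterol transporters ABCA1, ABCG5 and ABCG8 and the drug exporter ABCG2 were among those without a region. Of all 20056 protein-coding genes 8.84% had a listed region, so the lack of one in these examples is no result about liver transporters. Since the 8 genes were chosen for having one, the family's count is no finding either. The median gene length was 105.5 kb for the 8 genes, 74.5 kb for the other 40, 49.9 kb for the 1773 genes with a listed region and 24.1 kb for all protein-coding genes. The absence of a region shows only that none was called there.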

How the data were processed

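The members and gene lists were chosen with earlier results of these data known. RRBS was done on 6 HepG2 libraries, 3 per group, numbered 1 to 3 per the labels. Per the file headers, the authors gave each region's mean methylation level in both libraries as a fraction. Deposited counts cover the CpG sites of a region and each library's reads, total and mapped. The mapping rate and MspI cutting efficiency are the authors' percent values, per the file headers. The deposited lists also hold a signed difference score, which equalled the overexpressing minus the control level within 1e-12, and an area score that was not used. Per the submitters' processing notes, hg38 was the build. The aligner, the caller of regions and the call thresholds were not given in the sources used here.

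Rows overlapping by at least 1 bp were merged into distinct regions, in which a pair's value is the mean weighted by CpG sites; the merging was tested on simulated regions. Genes, starts and promoter sequences came from RefSeq (GRCh38.p14). Every region of the 8 genes was named. Of the other ABC genes, those with a region within 1 kb were to be named, and there were none. Genes without a region were named only as examples or to state how a subfamily was counted. Values are descriptive, with no test, since the genes were chosen by the same comparison. A region enters a list only when called, so listed differences tend to exceed those a fresh measurement would give. Other overlaps, filters on CpG sites and differences, weights, gene extents and each pair left out were tried. Python 3.11.15, pandas 2.3.3, numpy 2.4.6 and matplotlib 3.10.9 were used.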

Additional observations from a re-analysis of the deposited data

How the results depend on the processing

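No paired analysis was possible because a region had values from at most 2 pairs and the genes were chosen by the same comparison, so no model with or without a replicate block was fitted. The differences given are within pairs, as the lists hold them. Requiring an overlap of 50% of the shorter region, an unweighted mean, or the annotated extent of each gene as its window changed no value of the 13 rows. The first 2 could not, since each region had at most 1 row per pair and the 2 ABCC1 rows share their boundaries. With at least 10 CpG sites 9 rows remained, all higher, and the ABCA12, ABCA4 and ABCB1 regions and the 6-site ABCC11 region dropped out. With an absolute difference of at least 0.2 the pair 1 region of ABCA3 dropped out, leaving 12 rows. Leaving out a pair gave 8 rows without pair 1 or without pair 2 and 10 without pair 3, against 13. The regions listed in all pairs used numbered 0 without pair 1, 0 without pair 2 and 1, in ABCC1, without pair 3. The share of higher rows ranged from 87.5% without pair 1 or pair 2 to 100% without pair 3, which holds the ABCB1 loss. The median difference ranged from 0.234 to 0.278, and the ABCC1 difference from 0.281 to 0.305. Regions of a pair left out have no value, which were 4 without pair 1, 4 without pair 2 and 3 without pair 3. Filters and left-out pairs only remove rows and cannot reverse the direction of one, so the unchanged directions are no check. With no reads per region, a coverage minimum could not be tried.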

Other observations

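Beyond the windows used to choose the ABC regions, the nearest listed region lay 32.6 kb away at ABCA2, 37.8 kb at ABCA3 and 42.3 kb at ABCA7. These were a region in SAPCD2 at 0.495 in the overexpressing and 0.276 in the control library of pair 2, a region in DNASE1L2 at 0.610 in the overexpressing and 0.399 in the control library of pair 2, and a region outside annotated genes at 0.228 in the overexpressing and 0.401 in the control library of pair 1. At the other 5 genes the nearest was 297.4 kb (ABCA12, in FN1-DT) to 1507.6 kb (ABCA4, in GFI1) outside the window. The ABCB1 window thus had no other listed region within 1017.5 kb of it, where a region of LOC107986816 stood at 0.126 in the overexpressing and 0.464 in the control library of pair 1.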
